A study of Mus musculus with 15 samples.

Results

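The genes of Toll-like receptor 4 (TLR4) signalling were examined as RNA targets of tristetraprolin (TTP) in a mouse macrophage cell line. The list held 35 genes, chosen by name for their place in the pathway and not by any measured value: the receptor complex, its adaptors, the IRAK kinases, the TRAF proteins and ubiquitin enzymes, the TAK1 complex, the IKK family and the transcription factors at the end of the cascade. All 35 were found once in the GENCODE M21 annotation of the mouse genome (mm10, GRCm38), among 21045 genes with an annotated 3'UTR. Of these 35 genes, 23 had a TTP or TTP-AA crosslink site in the 3'UTR in at least 1 of the 6 lists, 3 had sites elsewhere in the gene and not in the 3'UTR, and 9 had no site in any list.

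Lipopolysaccharide (LPS) of Gram-negative bacteria is handed by CD14 to the complex of TLR4 and MD-2, and TLR2 is the receptor for bacterial lipoproteins. Inside the cell the adaptors MyD88 and TIRAP recruit IRAK kinases and TRAF6, which activate the TAK1 complex, the IKK kinases and thereby NF-κB, while TRIF and TRAM lead through TRAF3 and TBK1 to IRF3. TTP, a zinc finger protein that macrophages make in response to LPS, binds AU-rich elements in 3'UTRs and brings enzymes that shorten poly(A) tails to the bound mRNA, and the kinase MK2, which LPS activates, phosphorylates TTP and restrains it.

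RNA contacts of TTP were mapped by iCLIP, in which ultraviolet light links protein to RNA and the position at which reverse transcription stops marks the crosslinked nucleotide. The cells were immortalised bone marrow-derived macrophages of C57BL/6 mice that lack endogenous TTP and carried a transgene for GFP-TTP or for GFP-TTP-AA, in which both serines that MK2 phosphorylates are alanine. All groups received doxycycline for 6 h to switch the transgene on, and were left without LPS (0 h) or given LPS at 1 µg/ml for 1 h or 4 h. The 15 libraries (2, 4 and 2 for GFP-TTP and 2, 3 and 2 for GFP-TTP-AA at 0, 1 and 4 h) were deposited as 6 pooled lists of significant sites, 1 list per protein and time.

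The cell lines were immortalised with oncogenes, and the doxycycline promoter, not LPS, drove expression of the transgene in every group. Because each list pools its libraries, no value below has a replicate error. Tests and intervals compare lists, cover counting error only, and do not measure the spread between cultures. The lists held 19167 to 174397 cDNAs (unique molecules) at 8052 to 86497 sites, and the GFP-TTP-AA 1 h list was the largest. Its 3'UTR total of 93510 cDNAs was 9.78 times the 9558 of the GFP-TTP 1 h list, against 1.38 times at 0 h and 1.10 times at 4 h. Both 1 h lists were called with another region setting than the 0 h and 4 h lists, so the effect of LPS and that of the setting cannot be told apart. Zfp36, the gene for TTP, had 3'UTR cDNAs in 3 lists (4 for GFP-TTP at 0 h, 21 at 1 h, and 131 for GFP-TTP-AA at 1 h) although the transgenes hold the coding sequence alone. Of 6 genes typical of macrophages (Lyz2, Itgam, Ptprc, Csf1r, Adgre1 and Cd68), 6 had sites in the GFP-TTP-AA 1 h list, 5 in the GFP-TTP 1 h list, and 0 to 3 in the other lists.

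The sequences below are windows of 29 nt of spliced RNA around crosslink sites in 3'UTRs of the genes that carried most of the signal. Each is written 5' to 3' with the crosslinked nucleotide as base 15 and with AUUUA, the core of the AU-rich element, in capitals. The first set takes genes with at least 10 3'UTR cDNAs over both 1 h lists. Its genes had at least 76.9% of their GFP-TTP-AA 1 h cDNAs within 20 nt of an AUUUA. The strongest GFP-TTP-AA 1 h site of each is shown. Tollip and Traf6, at 100%, had 7 cDNAs each over both 1 h lists and were left out of this set. In Traf3, nt 4964 is shown and nt 4965 had the same count. Tab2, Nfkb1 and Cd14, with 64.3%, 60.0% and 59.0% of cDNAs near AUUUA, are not shown. Their strongest sites lay 13, 41 and 21 nt from AUUUA, in Nfkb1 and Cd14 tied with a site nearer to it. The windows shown are, in order, chr12:111267010-111267038, chr11:21150274-21150302, chr4:32020710-32020738 and chr19:46311943-46311971, all on the + strand.
Traf3: uuucauuugguAUUUAuuuguguuuugag
Peli1: uuuuuauuugcaauuaAUUUAuucaaacu
Map3k7: cacuuacaaagagaauAUUUAuauuguua
Nfkb2: cuaaucgaaaucuuAUUUAaaccucaagc

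A second set shows positions crosslinked in several lists or next to the longer element UUAUUUAUU, which itself contains AUUUA. They are a Traf6 position shared, with its 3' neighbour, by the GFP-TTP lists at 0 h and 1 h (chr2:101699320-101699348, + strand), the Traf3 position found in 4 lists (chr12:111267016-111267044, + strand) and a Rel site of the GFP-TTP-AA 1 h list within 20 nt of UUAUUUAUU (chr11:23737832-23737860, - strand). This Rel site, nt 4419, had 2 cDNAs, the highest count beside that element, and nt 4422 had the same count.
Traf6: aguagcugugucuauAUUUAUUUAgaaau
Traf3: uugguAUUUAuuuguguuuugaggucuug
Rel: cccagacuuuAUUUAuuuuuuuuagcuuu

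The third set shows the strongest sites of Tlr2 (chr3:83836323-83836351, - strand) and Tbk1 (chr10:121546978-121547006, - strand), whose annotated 3'UTRs hold no AUUUA.
Tlr2: guaacauagaauuguauuauugaggauau
Tbk1: uuuguaaauacauauacauauauauauau

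Most of the signal on these genes lay in 1 list. The 35 genes held 379 cDNAs at 288 3'UTR sites in the GFP-TTP-AA 1 h list, 12 cDNAs at 11 sites in the GFP-TTP 1 h list, 14 at 12 for GFP-TTP and 8 at 7 for GFP-TTP-AA at 0 h, and 0 and 10 (at 8 sites) at 4 h. At least 1 3'UTR site was found in 21 of the 35 genes (60.0%) in the GFP-TTP-AA 1 h list, where 21.2% of all 21045 genes had one. In the GFP-TTP 1 h list it was 5 genes (14.3%) beside 6.15% of all genes. At 0 h, 5 of the 35 genes had a site for GFP-TTP (all genes 3.51%) and 3 for GFP-TTP-AA (all genes 4.25%), and at 4 h 0 of 35 (all genes 0.603%) and 4 of 35 (all genes 0.941%). The background counts all annotated genes, whether or not macrophages transcribe them. None of the 35 genes had a 3'UTR site in the GFP-TTP 1 h list without one in the GFP-TTP-AA 1 h list. Of the 35, 12 had 3'UTR sites in the GFP-TTP-AA 1 h list alone. These counts go with the size of the lists, since 4468 of all genes had a 3'UTR site in the GFP-TTP-AA 1 h list and 1295 in the GFP-TTP 1 h list. The same overlap was not counted over all genes. A count of cDNAs grows with the amount of a transcript as well as with how often it is bound, and these cannot be told apart here, since no RNA abundance was part of the files used. A gene listed at 0 had no significant site in that list, which can still hold cDNAs below the significance limit.

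**Figure D1:**
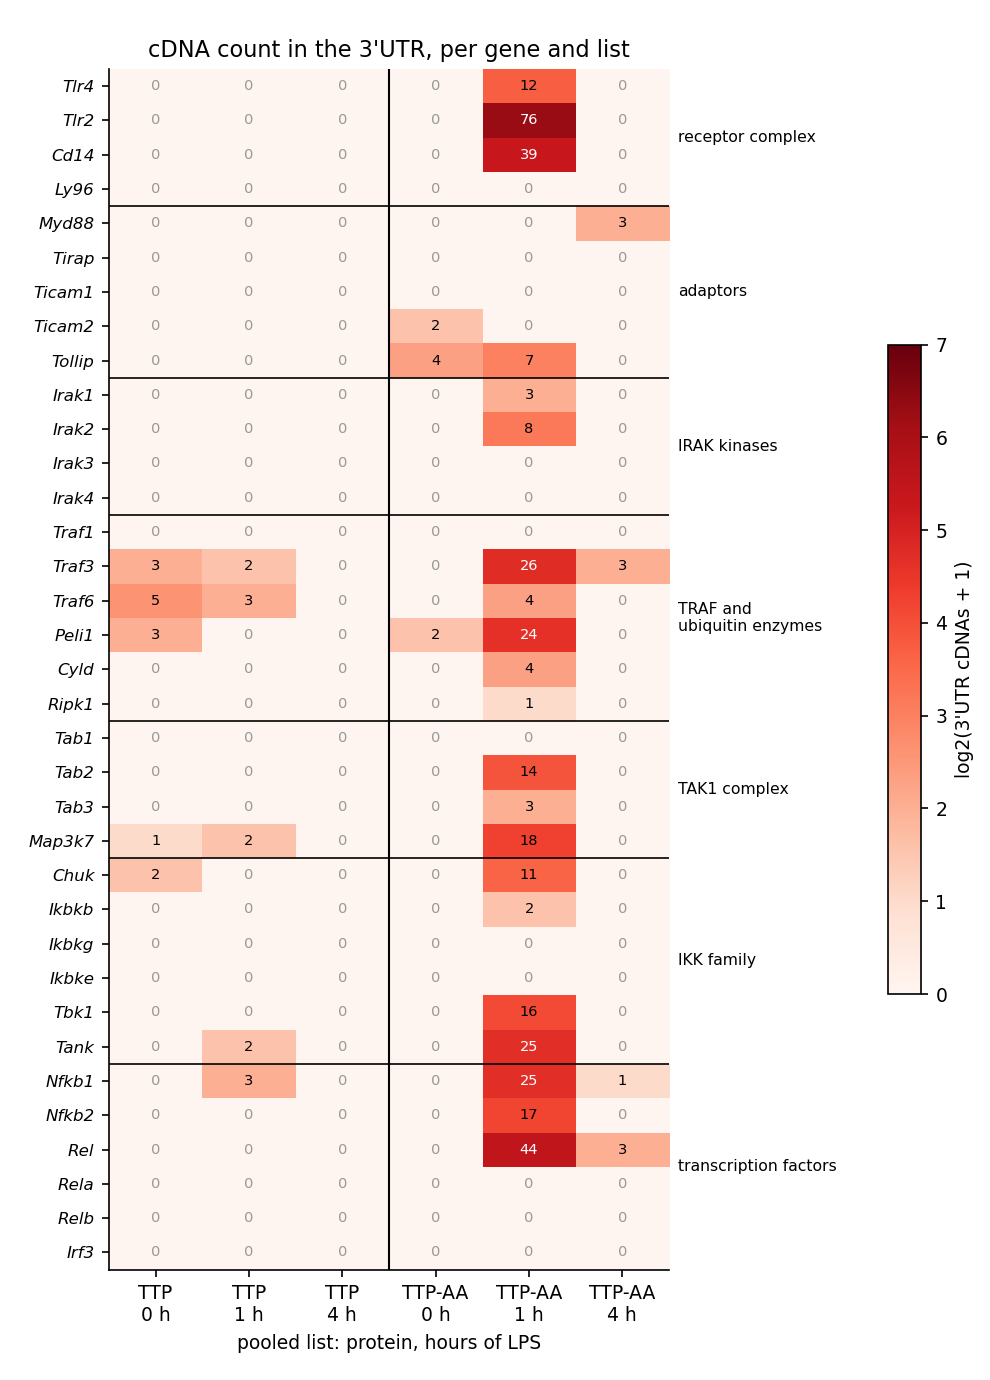
cDNAs in the 3'UTR of each of the 35 genes (rows, grouped by role) in each of the 6 pooled lists (columns, 3 for GFP-TTP and 3 for GFP-TTP-AA, by hours of LPS), with the count printed in each cell and the colour showing log2(cDNAs + 1). The GFP-TTP-AA 1 h column holds the highest count of 20 of its 21 genes with a site, the exception being Traf6 with 5 cDNAs for GFP-TTP at 0 h and 4 for GFP-TTP-AA at 1 h. Over all genes that list had 93510 3'UTR cDNAs, and the other lists had 906 to 9558.

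Of the receptor complex, Tlr2, Cd14 and Tlr4 were crosslinked in the 3'UTR, and together they held 127 of the 379 cDNAs (33.5%) of the GFP-TTP-AA 1 h list. Tlr2 (chr3:83836272-83841767, - strand) had the highest count of the 35 genes. It held 76 cDNAs at 48 3'UTR sites in the GFP-TTP-AA 1 h list and was listed at 0 in the 3'UTR in each of the other 5 lists. Its 3'UTR is 148 nt long, and the 48 sites lay between nt 27 and 120 after the stop codon, with no single site above 5 cDNAs. Per length, this was 514 cDNAs per kb of 3'UTR, the highest level among the 35 genes. By its count, Tlr2 ranked 181 among the 4468 genes with a 3'UTR site in this list. In the GFP-TTP 1 h list, Tlr2 had 5 cDNAs at 5 sites in the intron (chr3:83840555-83840566) and no site in the 3'UTR.

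Cd14 (chr18:36725067-36726798, - strand), which encodes the LPS co-receptor, held 39 cDNAs at 23 3'UTR sites in the GFP-TTP-AA 1 h list and was listed at 0 in the other 5. Of these, 33 cDNAs lay within 50 nt, from nt 38 to 87 of a 3'UTR of 233 nt that holds 1 AUUUA, and the level was 167 per kb, second to Tlr2. Tlr4 itself (chr4:66827584-66930284, + strand) held 12 cDNAs at 11 3'UTR sites in that list and 0 in the other 5, between nt 453 and 546 of a 3'UTR of 1321 nt. Ly96, which encodes MD-2, had 2 cDNAs at 2 sites in the coding sequence in the GFP-TTP-AA 1 h list and no other site.

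Adaptor mRNAs carried few sites. Tollip (chr7:141874813-141918507, - strand), which encodes an inhibitor of IRAK1 activation, held 4 cDNAs at 4 3'UTR sites for GFP-TTP-AA at 0 h, 7 at 6 sites at 1 h and 0 in the other 4 lists. Both sets lay within 1 stretch, nt 2698 to 2744 of a 3'UTR of 2784 nt. Myd88 (chr9:119335934-119341411, - strand), the adaptor of most Toll-like receptors, had 3 cDNAs at 2 sites for GFP-TTP-AA at 4 h alone, at nucleotides that the annotation also places in Slc22a14 on the same strand, so the gene they came from is uncertain. Ticam2 (TRAM) had 2 cDNAs at 2 sites for GFP-TTP-AA at 0 h alone, plus 2 intronic cDNAs for GFP-TTP at 1 h that lie in Tmed7 as well. Tirap and Ticam1 (TRIF) had no site in any list.

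Among the IRAK kinases, Irak2, whose product sustains signalling, held 8 cDNAs at 6 3'UTR sites in the GFP-TTP-AA 1 h list and 0 in the others, and 13 further cDNAs at 11 sites in its introns in the same list. Irak1 held 3 cDNAs at 3 3'UTR sites there. Irak3, which encodes the inhibitory family member IRAK-M, and Irak4, the first kinase of the chain, had no sense site in any list.

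The TRAF and ubiquitin group was the one with sites in most lists. Traf3 (chr12:111166370-111267153, + strand), an adaptor of the TRIF branch and a restraint on others, held 3, 2 and 0 cDNAs for GFP-TTP and 0, 26 and 3 for GFP-TTP-AA at 0, 1 and 4 h. In a 3'UTR of 5093 nt, all of these 34 cDNAs lay between nt 4936 and 5011, near the last AUUUA before the poly(A) end. A single nucleotide, chr12:111267030, was crosslinked in 4 of the 6 lists, with 2 cDNAs for GFP-TTP at 0 h and 1 at 1 h and 2 each for GFP-TTP-AA at 1 h and 4 h.

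Traf6 (chr2:101678429-101701669, + strand), the ubiquitin ligase that passes the MyD88 signal to TAK1, held 5, 3 and 0 cDNAs for GFP-TTP and 0, 4 and 0 for GFP-TTP-AA at 0, 1 and 4 h. Its 3'UTR is 4170 nt long with 11 AUUUA, and all 12 cDNAs lay in 1 stretch of 16 nt, nt 1835 to 1850, at overlapping AUUUA pentamers. Among the 5 genes with 3'UTR sites in both 1 h lists it had the most even counts. Peli1 (chr11:21091291-21150323, + strand), a ubiquitin ligase of the IRAK complexes, held 3, 0 and 0 cDNAs for GFP-TTP and 2, 24 and 0 for GFP-TTP-AA. Of its 24 cDNAs at 1 h, 21 lay between nt 1747 and 1779 of a 3'UTR of 1800 nt, in the stretch that also held the sites of both 0 h lists. Cyld and Ripk1, a deubiquitinase and a kinase of the TRIF branch, had 4 cDNAs and 1 cDNA in the GFP-TTP-AA 1 h list alone, and Traf1 had no site.

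In the TAK1 complex, Map3k7 (chr4:31964097-32023467, + strand), the gene of the kinase itself, held 1, 2 and 0 cDNAs for GFP-TTP and 0, 18 and 0 for GFP-TTP-AA. Of the 18, 14 lay between nt 1181 and 1219 of its 3'UTR, with the 0 h GFP-TTP site in the same stretch, while the 2 cDNAs of GFP-TTP at 1 h lay elsewhere, at nt 1391 and 1392. Tab2 (chr10:7905653-7956230, - strand), whose product holds TAK1 to ubiquitin chains, had 14 cDNAs at 13 sites in the GFP-TTP-AA 1 h list and 0 in the others, 9 of them between nt 1725 and 1756 of a 3'UTR of 1782 nt. Tab3 had 3 cDNAs in that list, and 2 in its coding sequence for GFP-TTP at 1 h. Tab1 had no site.

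The IKK family was split. Tank (chr2:61578585-61654171, + strand), a scaffold of TBK1, held 25 cDNAs at 22 3'UTR sites for GFP-TTP-AA at 1 h and 2 cDNAs at 2 sites for GFP-TTP at 1 h, and 0 elsewhere. The sites of the proteins lay in different last exons. The 25 cDNAs were in a 3'UTR of 616 nt that several transcripts share, and the 2 were in the 3'UTR of 1493 nt of a transcript that ends further upstream. Tbk1 (chr10:121546455-121586787, - strand), the kinase of IRF3, held 16 cDNAs at 12 sites for GFP-TTP-AA at 1 h and 0 in the other lists, all between nt 141 and 167 of its 682 nt. Chuk (chr19:44073335-44107480, - strand), which encodes IKKα, held 2 cDNAs for GFP-TTP at 0 h and 11 for GFP-TTP-AA at 1 h, each of the 11 at a site of its own. Ikbkb, which encodes IKKβ, had 2 cDNAs in the GFP-TTP-AA 1 h list alone. Ikbkg and Ikbke had none in the 3'UTR: Ikbkg had 2 intronic cDNAs for GFP-TTP-AA at 1 h, and Ikbke had 2 in the coding sequence for GFP-TTP at 0 h, and 2 in the 5'UTR and 3 in an intron for GFP-TTP at 1 h.

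At the transcription factors, 3 of 5 NF-κB subunit genes were crosslinked and Irf3 was not. Rel (chr11:23736847-23770970, - strand), which encodes c-Rel, held 44 cDNAs at 40 3'UTR sites for GFP-TTP-AA at 1 h, 3 at 4 h, and 0 in the other 4 lists. At 1 h they fell into 8 stretches of a 3'UTR of 5418 nt, those up to nt 884 and those from nt 4409 to nt 5326, with no site between. The 3 cDNAs at 4 h lay at nt 409 to 412, at most 15 nt beyond a stretch of 1 h sites that ended at nt 397. The fullest stretch, nt 4409 to 4436 with 13 cDNAs, lies at the UUAUUUAUU element shown above, the sole copy in this 3'UTR. Nfkb1 (chr3:135584655-135691547, - strand), the gene of p105 and p50, held 0, 3 and 0 cDNAs for GFP-TTP and 0, 25 and 1 for GFP-TTP-AA. The 3 cDNAs of GFP-TTP lay at nt 381 and 387 and those of GFP-TTP-AA between nt 561 and 721 of 751. Nfkb2 (chr19:46304320-46312385, + strand), the gene of p100 and p52, held 17 cDNAs at 13 sites for GFP-TTP-AA at 1 h alone, 16 of them between nt 191 and 216. Rela and Relb had no site in any list.

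**Figure D2:**
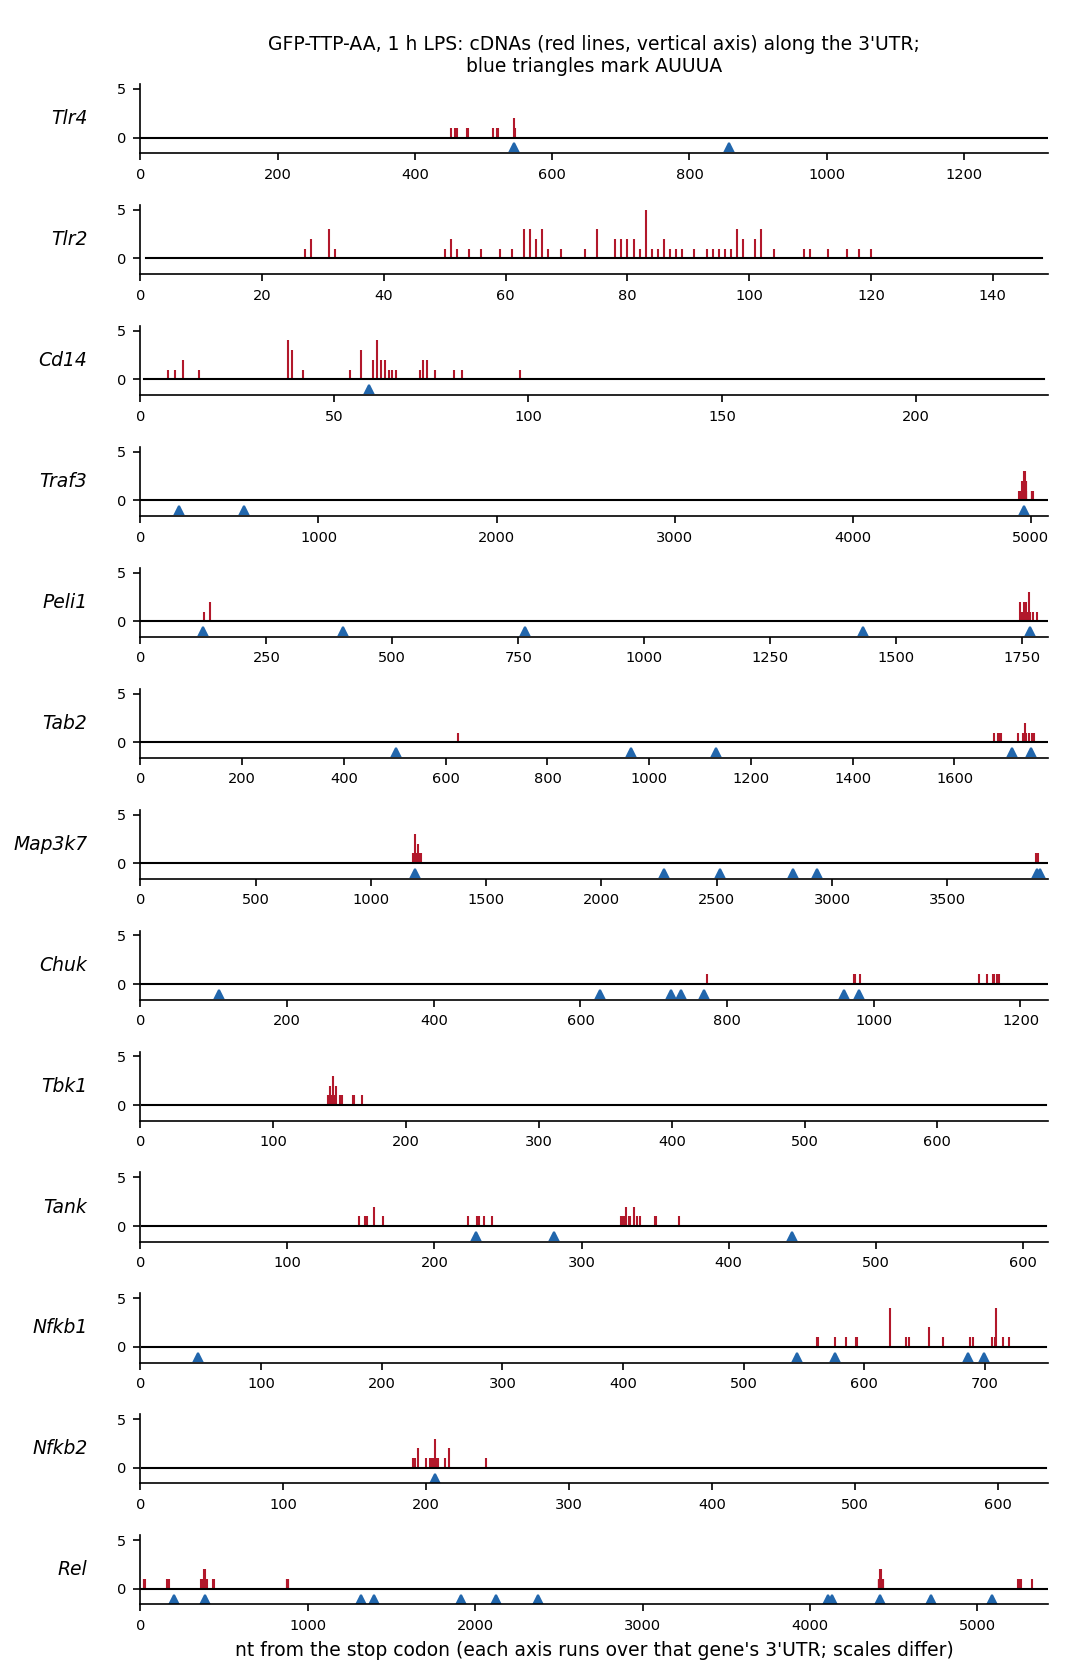
Sites of the GFP-TTP-AA 1 h list along the 3'UTRs of the 13 genes with at least 10 cDNAs over both 1 h lists. The horizontal axis is the distance in nt from the stop codon, running over each gene's own 3'UTR, red lines give the cDNAs at each site and blue triangles mark AUUUA. Tlr2 is covered over most of its length and has no triangle, Traf3 and Peli1 are filled near the 3' end, and Rel has sites in separate stretches between nt 20 and 884 and between nt 4409 and 5326, with none between them.

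The comparison of GFP-TTP-AA with GFP-TTP at 1 h asked whether each gene's share of the list's 3'UTR cDNAs differed between the proteins. A rise common to all 3'UTRs, such as the 9.78 times of their summed cDNAs, leaves the shares unchanged and cannot be seen by it. Each gene's 3'UTR cDNAs were set against all other 3'UTR cDNAs of the same list in a two-sided Fisher's exact test, with Benjamini-Hochberg adjustment over the 2065 genes with at least 10 cDNAs in both lists together. Of the 13 signalling genes that entered, 1 passed an adjusted p of 0.05, beside 6.39% of all genes tested. It was Tlr2, at 76 cDNAs against 0, where an equal share of the 3'UTR cDNAs would have given 7.77 in the GFP-TTP list (exact test, adjusted p = 0.0235). Rel (44 against 0, adjusted p = 0.212) and Cd14 (39 against 0, adjusted p = 0.266) did not pass the exact test. The other 10 had adjusted p values of 0.490 to 1. Of the 13 genes, 9 were listed at 0 for GFP-TTP and so reached the minimum through the GFP-TTP-AA list alone. The exact test no longer called Tlr2 when each site was counted once (48 sites against 0, adjusted p = 0.133) and when sites with 1 cDNA were left out (46 cDNAs against 0, adjusted p = 0.295). Set against all cDNAs of the list in place of those in 3'UTRs, all 13 genes were called higher for GFP-TTP-AA, while 85.4% of all genes tested were called in one direction or the other. But 3'UTRs held 53.6% of all cDNAs in the GFP-TTP-AA 1 h list and 9.63% in the GFP-TTP 1 h list. This setting therefore favours higher calls for GFP-TTP-AA in the 3'UTR of any gene, and nothing about these 13 is drawn from it.

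Where both lists held cDNAs, the ratios stood close to the 9.78 of all 3'UTRs together. For Traf3, 26 cDNAs against 2 gave a ratio of 13 (95% exact interval 3.25 to 113). For Tank, 25 against 2 gave 12.5 (3.12 to 109). For Map3k7, 18 against 2 gave 9.0 (2.15 to 80.0), and for Nfkb1, 25 against 3 gave 8.33 (2.54 to 43.1). All 4 intervals include 9.78. Traf6 was the exception, with 4 against 3 and a ratio of 1.33 (0.226 to 9.10), an interval that lies below 9.78, though with 7 cDNAs it was under the minimum for the test.

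Summed over the 35 genes, the ratio of GFP-TTP-AA to GFP-TTP at 1 h was 31.6 (95% exact interval 17.9 to 61.7), beside 9.78 for all genes. As a share of all 3'UTR cDNAs, the 35 genes made up 0.405% (95% Wilson interval 0.367 to 0.448) for GFP-TTP-AA and 0.126% (0.0718 to 0.219) for GFP-TTP. Tlr2 gave 20.1% of the sum, and without it the GFP-TTP-AA share was 0.324%.

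**Figure D3:**
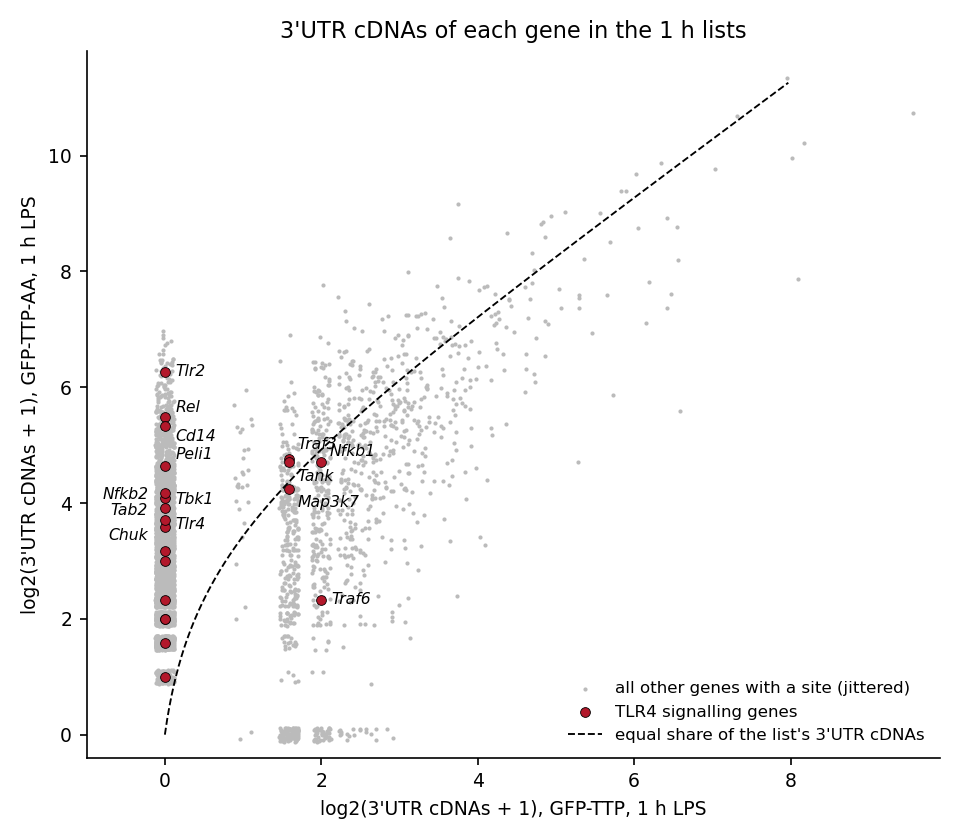
3'UTR cDNAs of every gene with a site in either 1 h list, as log2(cDNAs + 1), for GFP-TTP (horizontal) and GFP-TTP-AA (vertical), with the signalling genes in red and all other genes as grey points moved slightly at random. On the dashed line a gene has the same share of the 3'UTR cDNAs in both lists. Traf3, Tank, Map3k7 and Nfkb1 lie near it, Traf6 lies below it, and Tlr2, Rel and Cd14 are the highest of the red points at 0 for GFP-TTP.

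At 0 h, GFP-TTP had more cDNAs on these genes than GFP-TTP-AA, though the interval of the ratio includes 1. The counts of the 35 genes were 8 cDNAs with GFP-TTP-AA and 14 with GFP-TTP, a ratio of 0.571 (0.208 to 1.46) beside 1.38 for all genes, and their share of 3'UTR cDNAs was 0.133% (0.0675 to 0.263) against 0.320% (0.191 to 0.537). Of the 7 genes with a 3'UTR site at 0 h, Peli1 was the one found for both proteins. Traf6, Traf3, Chuk and Map3k7 had sites for GFP-TTP alone and Tollip and Ticam2 for GFP-TTP-AA alone, each on at most 5 cDNAs. Of all genes, 738 had a 3'UTR site for GFP-TTP and 894 for GFP-TTP-AA. How many had both was not counted, so whether this overlap is unusual cannot be told. None of the 35 genes reached the minimum of 10 cDNAs for the test at 0 h, in which 30.7% of 241 genes were called. At 4 h the counts were 10 for GFP-TTP-AA (Myd88, Traf3 and Rel with 3 each and Nfkb1 with 1) and 0 for GFP-TTP, and again none entered the test, in which 68% of 25 genes were called.

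The comparison of 1 h with 0 h of LPS was made within each protein. For GFP-TTP, the genes with sites at both times were Traf6 (3 cDNAs at 1 h and 5 at 0 h), Traf3 (2 and 3) and Map3k7 (2 and 1), Peli1 and Chuk were listed at 0 h and not at 1 h, and Tank and Nfkb1 at 1 h and not at 0 h. None of these entered the test, in which 47.5% of 276 genes were called. The overlap of the 2 times was not counted over all genes. For GFP-TTP-AA, 14 of the 35 genes entered, and 1 was called beside 12.4% of the 2052 genes tested. This was Tollip, whose share of the 3'UTR cDNAs fell to 0.112 of its level at 0 h (7 of 93510 cDNAs against 4 of 6008, exact test, adjusted p = 0.0303). Tlr2 (76 against 0, adjusted p = 0.0957), Rel (44 against 0, adjusted p = 0.382) and Cd14 (39 against 0, adjusted p = 0.489) did not pass the exact test. Set against all cDNAs of the list, these 3 genes were called higher at 1 h and Tollip was not, beside 24.5% of all genes called. That setting also takes in the 3'UTR share of the list, 53.6% at 1 h and 18.4% at 0 h, so nothing about these genes is drawn from it.

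**Figure D4:**
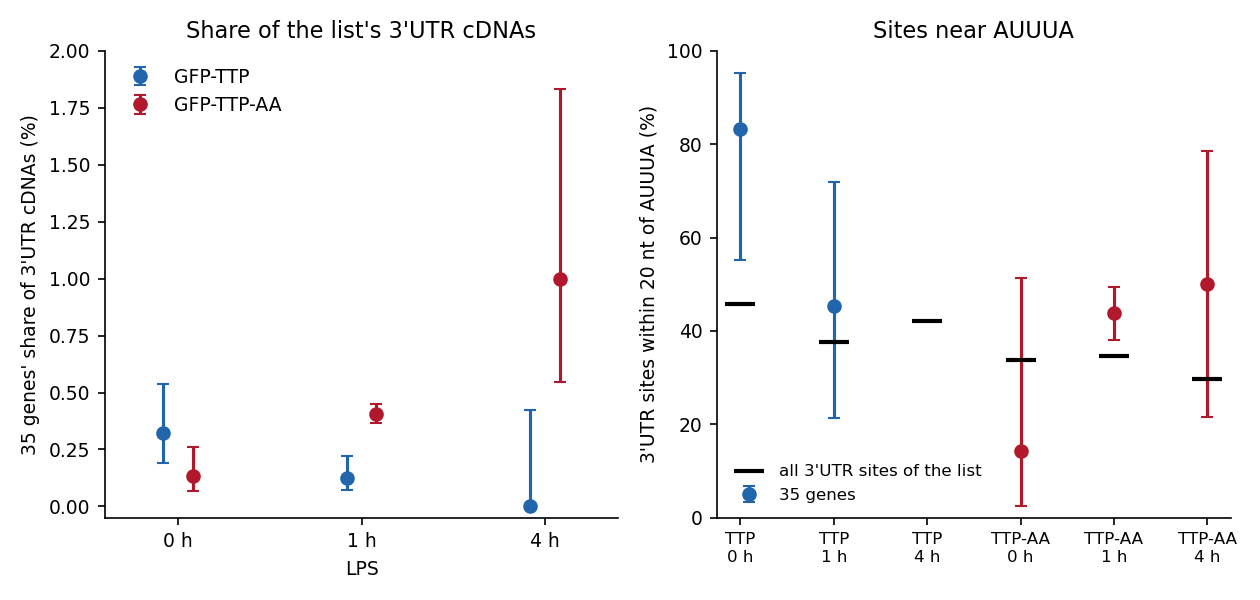
Left, share of each list's 3'UTR cDNAs that lay in the 35 genes, by hours of LPS, for GFP-TTP (blue) and GFP-TTP-AA (red). Right, share of the 35 genes' 3'UTR sites within 20 nt of an AUUUA in each list (points), with the share for all 3'UTR sites of the list as a black bar. Vertical lines are 95% Wilson intervals, which cover counting error only. The GFP-TTP-AA share of cDNAs lies below that of GFP-TTP at 0 h (0.133% against 0.320%) and above it at 1 h (0.405% against 0.126%).

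Proximity to AU-rich elements differed from gene to gene. In the GFP-TTP-AA 1 h list, 126 of the 288 3'UTR sites of the 35 genes (43.8%, 95% Wilson interval 38.1 to 49.5) had a whole AUUUA within 20 nt on the spliced transcript, beside 34.6% of all 61183 3'UTR sites of the list. Counted by cDNAs the values were closer, 45.1% beside 40.5% of all 3'UTR cDNAs of the list. Neighbouring sites of 1 gene share their sequence and are not independent. The share of cDNAs near AUUUA was 100% for Tollip (7 of 7) and Traf6 (4 of 4), 94.1% for Nfkb2, 91.7% for Peli1, 88.9% for Map3k7 and 76.9% for Traf3. It was 64.3% for Tab2, 62.5% for Irak2 (5 of 8), 60.0% for Nfkb1 and 59.0% for Cd14. Lower shares were found in Rel (22 of 44 cDNAs), Chuk (4 of 11), Tlr4 (3 of 12) and Tank (5 of 25). None were near AUUUA in Tlr2 and Tbk1, whose annotated 3'UTRs hold no AUUUA, nor, on 1 to 4 cDNAs, in Irak1, Cyld, Ripk1, Tab3 and Ikbkb. Without Tlr2, 52.5% of 240 sites were near AUUUA. Leaving out a gene with no site near AUUUA can only raise the share. Tbk1 was kept, and the share of all sites was not changed in the same way.

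In the other lists the sites were few. Near AUUUA were 10 of 12 sites for GFP-TTP at 0 h (all sites of the list 45.7%), 1 of 7 for GFP-TTP-AA at 0 h (33.7%), 5 of 11 for GFP-TTP at 1 h (37.7%) and 4 of 8 for GFP-TTP-AA at 4 h (29.7%). The 10 sites for GFP-TTP at 0 h lay in Peli1, Traf3, Traf6 and Map3k7. Of the 35 annotated 3'UTRs, taking the longest of each gene, 25 (71.4%) hold AUUUA, searched on the RNA strand, beside 65.2% of all 21045. Among the 21 genes with a site in the GFP-TTP-AA 1 h list 19 hold it (90.5%), close to the 85.2% of all 4468 genes with a site there. Among the 14 without a site 6 do, but the 21 genes had a median 3'UTR length of 1622 nt and the 14 of 1027 nt. UUAUUUAUU is held by 3 of the 35 (Rel, Ripk1 and Ikbkg) and by 7.66% of all 3'UTRs, and Rel was the one with sites beside it, 10 in number.

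The distance of the sites from the poly(A) end differed between lists. In the GFP-TTP-AA 1 h list, 104 of the 288 sites (36.1%, 30.8 to 41.8) lay at most 100 nt from the annotated 3' end, beside 18.2% of all 3'UTR sites of the list, and without Tlr2, whose whole 3'UTR is 148 nt, 60 of 240 were (25.0%, 19.9 to 30.8). In the GFP-TTP 1 h list 0 of 11 sites were, beside 12.8% of all sites. At 0 h it was 3 of 12 for GFP-TTP (all sites 23.0%) and 5 of 7 for GFP-TTP-AA (all sites 32.8%), and at 4 h 3 of 8 for GFP-TTP-AA (all sites 28.7%). In the GFP-TTP-AA 1 h list, Peli1, Tab2 and Tollip are examples of genes with most of their cDNAs there. The crosslinked nucleotide was U at 56.6% of the 288 sites and at 61.6% of all 3'UTR sites of the list.

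The positions bound by both proteins overlapped in few genes. At 1 h, 5 of the 11 GFP-TTP sites (45.5%, 21.3 to 72.0) had a GFP-TTP-AA site within 15 nt, all in Traf3 and Traf6, beside 76.6% of all 6775 GFP-TTP 3'UTR sites. The 6 sites in Tank, Nfkb1 and Map3k7 had none. At 0 h it was 0 of 12 beside 41.5% of all sites. When sites of all lists within 15 nt of each other were joined, the 35 genes had 78 stretches, of which 54 were found in the GFP-TTP-AA 1 h list alone, 8 in more than 1 list, and 4 for both proteins. These 4 were the stretches of Traf3, Traf6, Peli1 and Map3k7 described above. The GFP-TTP-AA 1 h list held 86497 sites in all and the other lists 8052 to 25960, and stretches were not counted over all genes.

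Outside 3'UTRs, the GFP-TTP-AA 1 h list held 45 cDNAs of the 35 genes. The 3'UTR took 89.4% (95% Wilson interval 86.1 to 92.0) of their 424 cDNAs, beside 85.1% over all genes with a 3'UTR. In the GFP-TTP 1 h list it took 40.0% (24.6 to 57.7) of 30 cDNAs, beside 36.6%, and introns took 46.7%. Counted by sites, the 3'UTR took 87.3% for GFP-TTP-AA at 1 h, beside 87.6% over all genes. For GFP-TTP at 1 h it took 39.3% of sites, beside 52.6%. By sites the 35 genes were thus not above all genes in either 1 h list. At 0 h the 3'UTR took 14 of 16 cDNAs for GFP-TTP (87.5%, 64.0 to 96.5, all genes 42.6%) and 8 of 11 for GFP-TTP-AA (72.7%, 43.4 to 90.3, all genes 53.4%). At 4 h it took 0 of 2 for GFP-TTP (all genes 13.8%) and 10 of 16 for GFP-TTP-AA (62.5%, 38.6 to 81.5, all genes 18.5%). By sites too, the shares at 0 h and for GFP-TTP-AA at 4 h were above those over all genes. Introns held 35 of the 45 cDNAs outside 3'UTRs for GFP-TTP-AA at 1 h, in Irak2 (13), Tlr4 (9), Tbk1 (6), Tank (5) and Ikbkg (2), and the coding sequences of Tbk1 (4) and Ly96 (2) held most of the rest. For GFP-TTP at 1 h, the 14 intronic cDNAs lay in Tlr2 (5), Tank (4), Ikbke (3) and Ticam2 (2). At 4 h, introns held 2 cDNAs of Traf6 for GFP-TTP, and 2 each of Tlr4, Tbk1 and Chuk for GFP-TTP-AA.

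One intronic stretch of Tlr4 stood out as the sole stretch found at all 3 times for the same protein. At chr4:66850834-66850836, the GFP-TTP-AA lists held 3, 4 and 2 cDNAs in order of time, and GFP-TTP was listed at 0 each time. A second stretch, chr4:66844746-66844759, held 5 cDNAs for GFP-TTP-AA at 1 h. The annotation places both in the intron chr4:66834061-66924365 of a single, longer transcript of the gene. They lie 1946 to 1959 nt and 8034 to 8036 nt beyond the 3' end of the transcript that carries the 3'UTR sites, so whether these RNAs were Tlr4 transcripts cannot be told from the lists. This stretch was singled out after its values were seen.

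Of 43 further genes of Toll-like receptor and NF-κB signalling, 16 had a 3'UTR site in the GFP-TTP-AA 1 h list and 5 in the GFP-TTP 1 h list, with 1825 and 134 cDNAs. Most of these were on the feedback inhibitors Tnfaip3 (664 and 55), which encodes the enzyme A20, and Nfkbia (662 and 59), which encodes IκBα, and on Nfkbiz (375 and 12), which encodes an inducible nuclear IκB protein. At 1 h, 7 of the 43 entered the test and 1, Nfkbiz, was called, with a higher share for GFP-TTP-AA (exact test, adjusted p = 0.000157). The highest count of the 35 signalling genes, 76 for Tlr2, thus stood far below these 3, and the 35 genes together, at 379 cDNAs, were close to Nfkbiz alone.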

How the data were processed

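The authors mapped iCLIP reads with Bowtie to mm10 with Ensembl 75, collapsed them by random barcode to unique cDNAs, pooled the libraries of each group and called sites with iCount (FDR 0.05, 100 permutations, 15 nt neighbourhood, per the file headers). The deposited files give each significant nucleotide a score, the signed whole number of cDNAs with the strand as its sign. Both 1 h headers carry an additional region setting.

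Sites were assigned by strand to GENCODE M21 with the priority 3'UTR, coding sequence, 5'UTR, non-coding exon, intron (Python 3.11.15, scipy 1.17.1). A 3'UTR site went to the transcript with the longest 3'UTR. Each gene's 3'UTR cDNAs were compared between lists by two-sided Fisher's exact test with Benjamini-Hochberg adjustment over all genes with at least 10 cDNAs, which was tested on simulated data. Levels per kb use all nucleotides annotated as 3'UTR in any coding transcript. Full values are given for genes with at least 10 cDNAs over both 1 h lists, those past a test and those with 3 cDNAs in a 0 h or 4 h list, and the others by counts. The alternatives were another comparison set, minimum count, motif window and overlap distance, sites in place of cDNAs, and sites in no other gene. The genes and lists were chosen with earlier results of these data known.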

Additional observations from a re-analysis of the deposited data

Results flagged for a closer look

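The 35 genes' share of 3'UTR cDNAs in GFP-TTP-AA over that in GFP-TTP lay on opposite sides of 1 at 0 h and 1 h. The ratio of shares was 0.416 at 0 h, on 8 and 14 cDNAs, and 3.23 at 1 h, on 379 and 12 cDNAs. The difference between the times was not tested, since each protein and time is 1 pooled list. The 1 h lists also differed from the 0 h lists in the region setting of the site calling, which cannot be told apart from the time.

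Sites on the strand opposite to these genes, which enter no comparison above, held 5 cDNAs in the GFP-TTP 1 h list (3 in Irak4 and 2 in Ripk1) and 5 in the GFP-TTP-AA 1 h list (3 in Irak4 and 2 in Ikbkg). Antisense sites of Irak4 were thus in both 1 h lists, while the gene had no sense site in any list.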

How the results depend on the processing

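No paired analysis was possible because each list pools its libraries, and for the same reason no replicate could be left out. Of 71 alternative values, 54 stayed within the limits of the main value. At 1 h, GFP-TTP-AA against GFP-TTP, the number of called genes went from 1 to 13 with all cDNAs of the list as the comparison set, and to 0 with sites counted once or with sites of at least 2 cDNAs. With a minimum of 5 cDNAs, 1 gene was called at 0 h, of 2 tested and beside 27.4% of all genes. It was Traf6, lower for GFP-TTP-AA (Fisher's exact test, adjusted p = 0.0483). Traf6 had just the 5 cDNAs needed, all of them in the GFP-TTP 0 h list. It thus entered the test only through the list in which it was higher, so nothing about Traf6 is drawn from this call. For GFP-TTP-AA at 1 h against 0 h, 3 genes were called with all cDNAs of the list. Both counts with all cDNAs also take in the different 3'UTR shares of the lists. Genes with at least 5 cDNAs in the 3'UTR numbered 1 and 0 at 0 h (GFP-TTP and GFP-TTP-AA), 0 for GFP-TTP at 1 h and 0 for GFP-TTP-AA at 4 h. The summed ratio at 1 h was 3.23 after division by the lists' 3'UTR cDNAs. The share of sites near AUUUA moved with the window. For GFP-TTP-AA at 1 h it was 28.1% within 10 nt (all sites of the list 23.3%) and 56.9% within 50 nt (all sites 51.1%). By cDNAs these shares were 30.3% (all 3'UTR cDNAs 29.2%) and 58.0% (all 3'UTR cDNAs 56.4%). For GFP-TTP-AA at 0 h, on 7 sites, the share of sites was 0% (all sites 22.3%) and 71.4% (all sites 47.3%). Within 50 nt it was 100% for GFP-TTP at 0 h, on 12 sites (all sites 57.9%). It was also 100% for GFP-TTP-AA at 4 h, on 8 sites (all sites 40.2%). The share of GFP-TTP sites at 1 h with a GFP-TTP-AA site at the same nucleotide was 9.09% (1 of 11), beside 46.0% of all 6775 GFP-TTP 3'UTR sites. Counts were low in all lists: the 35 genes had at most 12 3'UTR sites outside the GFP-TTP-AA 1 h list, and in that list 225 of the 288 sites rested on 1 cDNA.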
